A study of Mus musculus with 4 samples.

Results

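Semaphorins, plexins and neuropilins are the ligands, receptors and coreceptors of one guidance system, and all 31 genes of the family that the expression table lists were chosen by gene symbol, out of 23361 genes in all. They are 20 semaphorins (Sema3a to Sema7a), 9 plexins (Plxna1 to Plxnd1) and 2 neuropilins (Nrp1 and Nrp2). RNA was sequenced from 2 libraries of Nfatc1+ and 2 libraries of Shh+ epithelial cells of the mouse hair peg, the downgrowth of the embryonic epidermis that becomes a hair follicle. Both populations came from back skin of E17.5 embryos that carried a CreER recombinase (under Nfatc1 or under Shh), Rosa-stop-tdTomato and K14-H2BGFP, and the embryos had been exposed to tamoxifen at E15.5. The sort took cells with both fluorescent proteins, of which K14-H2BGFP marks keratinocytes. A cell was therefore sorted by its driver's activity when tamoxifen was given, and could have changed its expression in the days up to the sort. Whole skin was held for 16 min in 0.25% trypsin at 37°C to free the Nfatc1+ cells. For Shh+ cells the skin was held for 1 h in dispase at 0.4 mg/ml, the epidermis was discarded, and trypsin followed for 10 min, so that the population and the digestion cannot be told apart in any difference below. Whether libraries of one population came from separate animals is not given in the sources used here, and the p-values then measure only the spread between libraries, which may be technical.

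Semaphorins carry a Sema domain, by which they bind plexins on the same or on neighboring cells. Those of class 3 are secreted and mostly need a neuropilin beside the plexin, those of classes 4, 5 and 6 span the membrane, and Sema7a is held by a lipid anchor. Plexins act through a GTPase-activating domain on small GTPases of the Ras and Rap families, and so change adhesion and the cytoskeleton. The system is best known for the steering of axons, and is also used in blood vessels, bone, immune cells and epithelia, where it acts on migration and on cell contacts.

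Expression is given as FPKM, fragments scaled to transcript length and to the mapped fragments of the library, which allows levels of different genes to be set side by side. The comparison asks which genes differ between both populations of the hair peg. Shh was at 10.5 and 11.7 FPKM in the Nfatc1+ libraries and at 144 and 145 FPKM in the Shh+ libraries, and Nfatc1 was at 112 and 116 FPKM against 25.3 and 20.1 FPKM, so that each driver was higher in its own population. The keratinocyte gene Krt14 was at 1232 and 1204 FPKM in Nfatc1+ and at 1030 and 1086 FPKM in Shh+ libraries. Depth was estimated from the most common ratio of FPKM between 2 libraries among genes below 0.3 FPKM, taken to stand for equal numbers of fragments. Relative to Nfatc1+ replicate 1 it came to 0.927 for both the second Nfatc1+ and the first Shh+ library. For the second Shh+ library it was only 0.575, and the absolute depth is unknown. Markers of other cells also differed, by the test described in the next paragraph. By that test 18.9% of all tested genes were higher in Nfatc1+ cells and 18.1% in Shh+ cells. Of 9 Merkel cell markers tested, 7 were higher in Nfatc1+ cells (77.8%), though 3 of them, Atoh1, Krt20 and Isl1, passed the filter only through the Nfatc1+ libraries. Of 19 immediate early and stress genes, which digestion can induce, 15 were higher in Nfatc1+ cells (78.95%) and 2 in Shh+ cells (10.5%).

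Of the 31 family members, 27 averaged 0.5 FPKM or more across the 4 libraries and were tested with limma on log2(FPKM + 0.5), as Shh+ minus Nfatc1+, and this log2 fold change is given below as the log2 difference. The test was fitted over 12750 genes, and a gene was called at a Benjamini-Hochberg adjusted p under 0.05. Of these members 11 were higher in Shh+ cells (40.7%, where all tested genes gave 18.1%) and 7 were higher in Nfatc1+ cells (25.9%, against 18.9%), so that 18 of 27 were called (66.7%, against 37.0%). At a log2 fold change of at least 1 in size, 4 were higher in Shh+ cells (14.8%, against 4.77%) and 5 in Nfatc1+ cells (18.5%, against 5.81%). The median log2 fold change of the members was 0.03 and that of all tested genes 0.00, and the median size of the change was 0.68 for members and 0.24 for all tested genes. Both libraries of one population lay above both of the other for 20 of 27 members (74.1%), close to the 70.7% of all tested genes. The median difference between replicates of the members was 0.08 log2 units in Nfatc1+ and 0.09 in Shh+ cells. The count in Shh+ cells was 6 without Nfatc1+ replicate 1 or without Shh+ replicate 2, and 9 at most with 1 library left out, whereas that in Nfatc1+ cells was 7 in each case. The untested members were Sema4f, Sema6b, Sema7a and Plxnb3, and Plxna4 passed the filter only through its Shh+ libraries. Without Plxna4, 26 members remain, of which 10 were called in the Shh+ direction and 7 in the other.

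**Figure D1:**
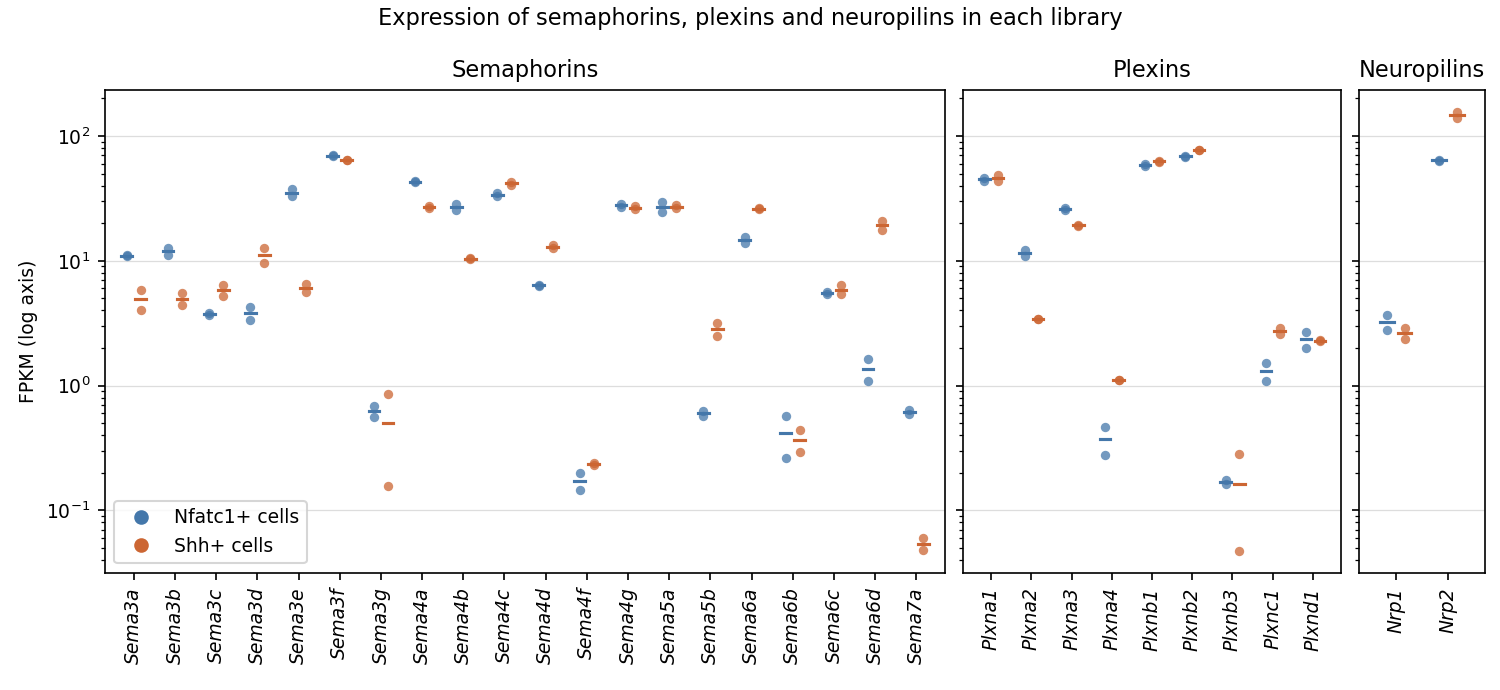
FPKM (log axis) of the 31 family members in each library of Nfatc1+ (blue) and Shh+ (orange) cells; dots are libraries and lines are means of 2 libraries. Nrp2 has the highest level of all members in Shh+ cells, and Sema6d, Sema3e and Sema7a have the widest gaps between populations.

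Among the ligands, called semaphorins of class 3 went in both directions. Sema3f, which signals through neuropilin 2, was the most abundant semaphorin in both populations, at 68.6 and 69.9 FPKM in the Nfatc1+ libraries and 64.2 and 64.5 FPKM in the Shh+ libraries. Its Nfatc1+ libraries were the higher ones, but the difference did not pass the test (log2 difference −0.11, 95% interval −0.24 to 0.03, limma adjusted p = 0.189).

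Sema3e, which can bind plexin D1 without a neuropilin, was at 33.2 and 37.2 FPKM in Nfatc1+ cells and at 5.58 and 6.47 FPKM in Shh+ cells. The populations were far apart, 5.85-fold by their means (log2 difference −2.46, standard error 0.10, limma adjusted p = 9.31e-06). It was the third most abundant semaphorin in Nfatc1+ cells and the eleventh in Shh+ cells. Sema3a, the ligand of neuropilin 1 that repels many axons, was at 11.1 and 10.8 FPKM in Nfatc1+ cells and 4.06 and 5.87 FPKM in Shh+ cells (log2 difference −1.09, adjusted p = 0.00239). Sema3b was at 12.6 and 11.2 FPKM against 4.40 and 5.51 FPKM (log2 difference −1.19, adjusted p = 0.000634). In all 3 genes both Nfatc1+ libraries lay above both Shh+ libraries. With no filter on low values the calls of Sema3a and Sema3b ended (adjusted p = 0.11 and 0.0622 by limma), in ranges of 0.000492 to 0.11 and 0.000236 to 0.0622 over the alternatives.

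Sema3d moved the other way, from 3.33 and 4.23 FPKM in Nfatc1+ cells to 9.67 and 12.7 FPKM in Shh+ cells (log2 difference 1.44, standard error 0.17, limma adjusted p = 7e-04). Sema3c, a ligand of both neuropilins, was at 3.70 and 3.84 FPKM against 5.24 and 6.36 FPKM (log2 difference 0.56, adjusted p = 0.0174). The libraries of the populations did not overlap in either gene. With no filter the call of Sema3d ended (adjusted p = 0.075, in a range of 2.96e-05 to 0.075). Sema3c lost its call with no filter (0.14) and when Nfatc1+ replicate 1 (0.0693), Nfatc1+ replicate 2 (0.0556) or Shh+ replicate 2 (0.0862) was left out, with a lowest value of 0.012. Sema3g, known from blood vessels, was at 0.561 and 0.685 FPKM in Nfatc1+ cells and at 0.158 and 0.848 FPKM in Shh+ cells. Its Shh+ libraries enclosed the Nfatc1+ values, and the interval of its difference was wide, from −1.12 to 0.61.

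The make-up of class 3 thus differed between the populations. Summed over its 7 genes, class 3 was at 133 and 138 FPKM in Nfatc1+ cells and at 93.3 and 102 FPKM in Shh+ cells. Sema3e made up 25.0% and 27.0% of that sum in the Nfatc1+ libraries and 5.98% and 6.33% in the Shh+ libraries, while Sema3d made up 2.50% and 3.07% against 10.4% and 12.4%. With 2 libraries in each population, an exact permutation test of such a sum cannot pass the threshold, so sums and shares are given as a description.

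**Figure D2:**
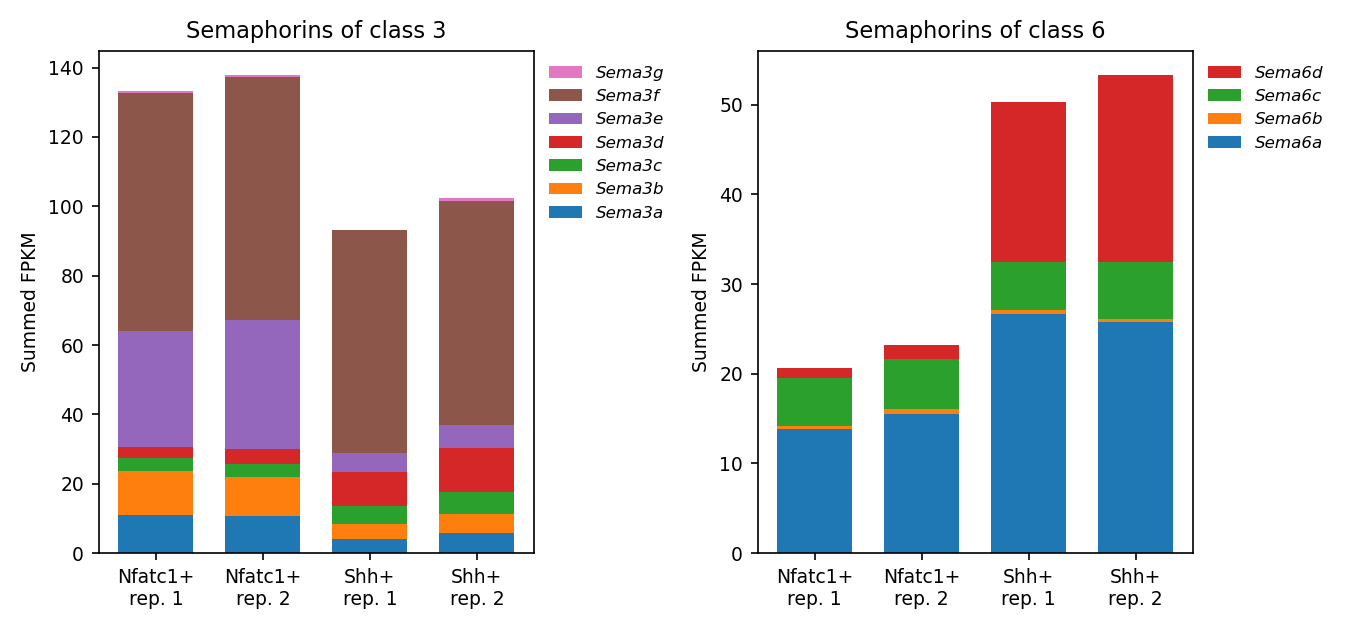
Summed FPKM of the semaphorins of class 3 (left) and class 6 (right) in each library, with 1 color for each gene. The Sema3e and Sema6d segments differ most between populations: Sema3e is the large middle segment of the Nfatc1+ libraries, and Sema6d the top segment of the Shh+ libraries.

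The membrane semaphorins of class 4, which signal mostly through plexins of type B, summed to nearly the same level as class 3 in Nfatc1+ cells, at 138 and 139 FPKM, and to 118 and 120 FPKM in Shh+ cells. Sema4a, which also acts on immune cells, was at 42.5 and 43.6 FPKM in Nfatc1+ cells and 26.3 and 27.2 FPKM in Shh+ cells (log2 difference −0.68, limma adjusted p = 0.000297). Sema4b was at 28.4 and 25.4 FPKM against 10.5 and 10.4 FPKM, a 2.58-fold difference (log2 difference −1.33, standard error 0.09, adjusted p = 5.18e-05). These Nfatc1+ libraries stood clear of the Shh+ libraries in both genes.

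Sema4d, the classical ligand of plexin B1, was higher in Shh+ cells, at 12.7 and 13.3 FPKM against 6.45 and 6.28 FPKM (log2 difference 0.98, limma adjusted p = 0.000294). Sema4c, a ligand of plexin B2, was at 40.6 and 42.7 FPKM in Shh+ cells and 33.1 and 34.6 FPKM in Nfatc1+ cells, a small difference of 1.23-fold (log2 difference 0.30, adjusted p = 0.0133). Sema4c lost its call when Nfatc1+ replicate 1 (adjusted p = 0.0751) or Shh+ replicate 2 (0.0539) was left out, with no filter (0.0743) and with no intensity trend (0.0512), in a range of 0.0107 to 0.0751. Sema4g was at 27.2 and 28.7 FPKM in Nfatc1+ cells and at 27.2 and 25.9 FPKM in Shh+ cells, and its difference lay between −0.24 and 0.10 log2 units (95% interval). Sema4f was between 0.145 and 0.237 FPKM in the 4 libraries and was not tested.

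Class 5 holds semaphorins with thrombospondin repeats. Sema5a was at 24.7 and 29.5 FPKM in Nfatc1+ cells and at 26.4 and 28.0 FPKM in Shh+ cells, with the Shh+ values inside the Nfatc1+ range (log2 difference 0.01, 95% interval −0.22 to 0.24). Its relative Sema5b was low, at 0.626 and 0.570 FPKM in Nfatc1+ cells and 3.17 and 2.52 FPKM in Shh+ cells. It was 4.75-fold higher in Shh+ cells (log2 difference 1.60, standard error 0.19, limma adjusted p = 0.000818). The 0.5 added to each value understates changes at such levels, and the log2 fold change of Sema5b was 2.07 with 0.1 added.

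The widest difference of the tested members was found in class 6, whose proteins bind plexins of type A. Sema6d was at 1.09 and 1.62 FPKM in the Nfatc1+ libraries and at 17.8 and 20.9 FPKM in the Shh+ libraries. All Shh+ values were thus more than 10 FPKM above the Nfatc1+ values, a 14.3-fold difference of the means (log2 difference 3.43, standard error 0.17, limma adjusted p = 1.65e-05). Sema6a was at 13.9 and 15.49 FPKM in Nfatc1+ cells and 26.7 and 25.8 FPKM in Shh+ cells (log2 difference 0.82, adjusted p = 4e-04). Sema6c was at 5.41 and 5.58 FPKM against 5.37 and 6.34 FPKM, with overlapping libraries (log2 difference 0.08, 95% interval −0.21 to 0.37), and Sema6b was between 0.265 and 0.571 FPKM and not tested. The class as a whole summed to 20.7 and 23.3 FPKM in Nfatc1+ cells and 50.3 and 53.4 FPKM in Shh+ cells, and the share of Sema6d in it was 5.28% and 6.96% against 35.4% and 39.2%.

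Sema7a, the member with a lipid anchor and a ligand of integrins of the β1 type and of plexin C1, was at 0.635 and 0.596 FPKM in Nfatc1+ cells and at 0.0596 and 0.0480 FPKM in Shh+ cells. Its Nfatc1+ libraries lay above the Shh+ libraries, 11.4-fold by the means, but it did not reach the filter. With no filter, the fit gave a log2 fold change of −1.01 with a standard error of 0.027. At such low values the constant added to each FPKM narrows the spread between libraries. That fit therefore cannot decide whether Sema7a differed, and its values are a description. Over all 20 semaphorins the sum was 318 and 331 FPKM in Nfatc1+ cells and 291 and 306 FPKM in the Shh+ libraries.

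**Figure D3:**
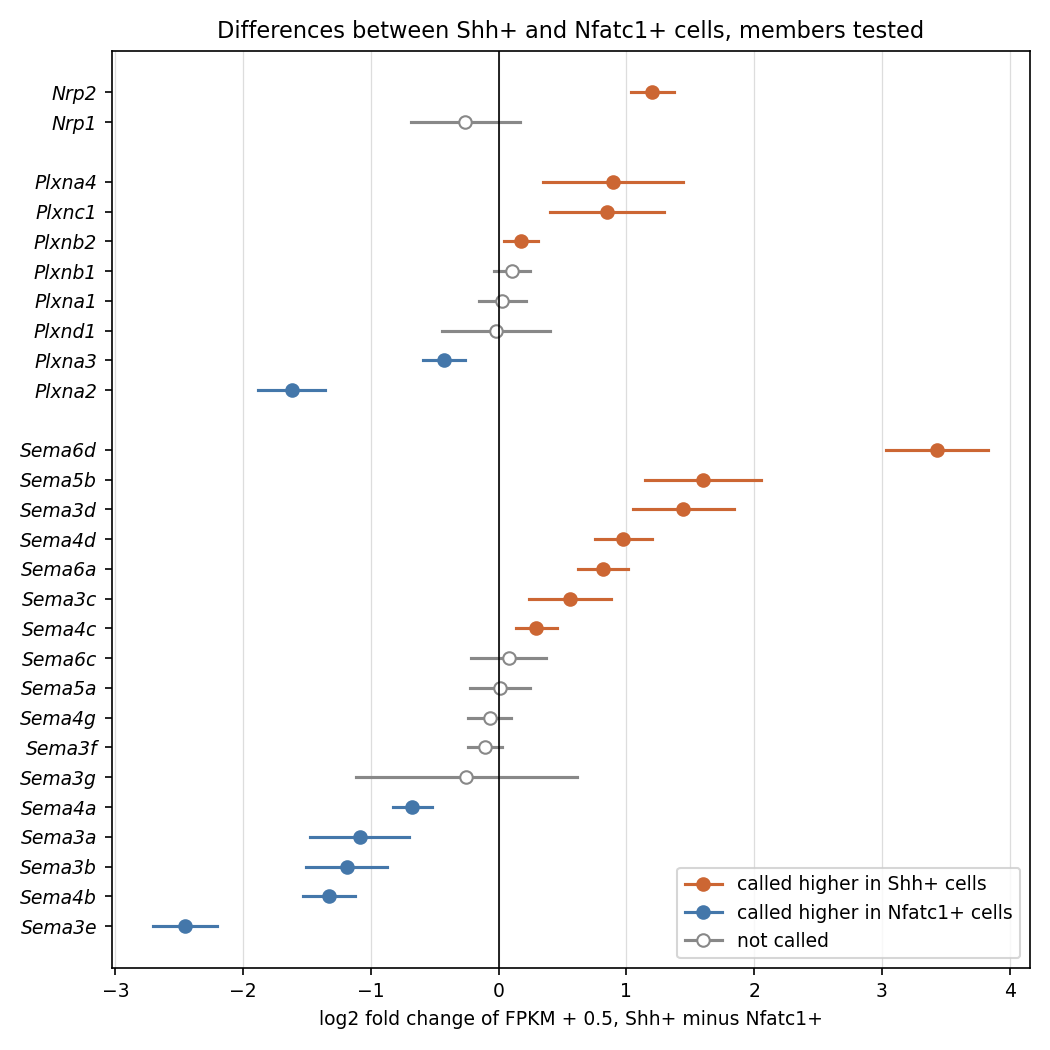
Log2 fold change of FPKM + 0.5 (Shh+ minus Nfatc1+) of the 27 members tested, with 95% intervals from limma; orange and blue circles were called higher in Shh+ or Nfatc1+ cells and open circles were not called. Sema6d lies farthest to the right at 3.43 and Sema3e farthest to the left at −2.46.

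Among the plexins, the most abundant receptors, Plxnb2, Plxnb1 and Plxna1, differed by little, and Plxna2 differed most. Plxnb2 was at 68.0 and 69.6 FPKM in Nfatc1+ cells and 77.9 and 77.4 FPKM in Shh+ cells, only 1.13-fold apart (log2 difference 0.17, limma adjusted p = 0.0498). This call ended when any 1 of the 4 libraries was left out (adjusted p = 0.2, 0.134, 0.12 and 0.107 without Nfatc1+ replicates 1 and 2 and Shh+ replicates 1 and 2), in a range of 0.039 to 0.2 over the alternatives, and it also ended with the replicate block (0.0672), with 0.1 added in place of 0.5 (0.0505), at a mean of 1 FPKM or more (0.0515) and with no intensity trend (0.143). Plxnb1 was at 57.2 and 59.2 FPKM against 63.5 and 61.5 FPKM (log2 difference 0.10, 95% interval −0.04 to 0.24) and was not called. Plxna1 was at 44.0 and 46.1 FPKM in Nfatc1+ cells and at 48.8 and 43.2 FPKM in Shh+ cells, with the Nfatc1+ values inside the Shh+ range (log2 difference 0.03, 95% interval −0.16 to 0.21).

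Plxna2, a receptor of class 6 semaphorins and, with a neuropilin, of class 3, was the plexin that differed most. It was at 10.9 and 12.1 FPKM in Nfatc1+ cells and at 3.39 and 3.41 FPKM in Shh+ cells, so that Nfatc1+ cells were 3.38-fold higher (log2 difference −1.62, standard error 0.11, limma adjusted p = 6.75e-05). Plxna3, which works with neuropilin 2 in axon guidance, was also higher there, at 25.7 and 26.3 FPKM against 19.5 and 18.9 FPKM (log2 difference −0.43, adjusted p = 0.00338). In both genes the libraries of each population lay close together and apart from the other population.

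Among the plexins with low levels, Plxna4 was at 0.277 and 0.463 FPKM in Nfatc1+ cells and at 1.11 and 1.11 FPKM in Shh+ cells. Since it passed the filter only through the libraries where it was high, its log2 difference of 0.90 is a description, and it was 1.39 with 0.1 added and 0.63 with 1 added. Plxnc1, the receptor of Sema7a, was at 1.09 and 1.52 FPKM in Nfatc1+ cells and at 2.57 and 2.89 FPKM in Shh+ cells (log2 difference 0.85, limma adjusted p = 0.0124). That call was lost with no filter (0.148) and when Nfatc1+ replicate 1 (0.0605) or Shh+ replicate 2 (0.0608) was left out, with a lowest value of 0.00675. Plxnc1 was thus higher where its ligand Sema7a had the lower values. Plxnc1 was also higher in replicate 2 of each population, as were the summed markers of melanocytes, at 30.8 and 64.4 FPKM in Nfatc1+ cells and 7.44 and 43.2 FPKM in Shh+ cells. Of the 9 melanocyte markers tested by limma, 1 was called (11.1%, against 37.0% of all tested genes), Mitf, which was higher in Nfatc1+ cells. The part of melanocytes in the Plxnc1 difference was not tested. Plxnd1, the receptor of Sema3e, was at 1.99 and 2.70 FPKM in Nfatc1+ cells and 2.31 and 2.26 FPKM in Shh+ cells, with the Shh+ values inside the Nfatc1+ range (log2 difference −0.02, 95% interval −0.44 to 0.40). Plxnb3 was at 0.161 and 0.174 FPKM against 0.0475 and 0.281 FPKM and was not tested.

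Of the neuropilins, Nrp2 was by far the more abundant. It was at 64.1 and 63.6 FPKM in Nfatc1+ cells and at 157 and 139 FPKM in Shh+ cells, so that Shh+ cells were 2.32-fold higher (log2 difference 1.20, standard error 0.07, limma adjusted p = 3.66e-05). At that level it exceeded 96.8% of the tested genes in Shh+ cells. Nrp1 was at 2.79 and 3.71 FPKM in Nfatc1+ cells and at 2.35 and 2.88 FPKM in Shh+ cells, with overlapping libraries (log2 difference −0.26, 95% interval −0.69 to 0.17, adjusted p = 0.296). Nrp2 made up 95.8% and 94.5% of the neuropilin sum in the Nfatc1+ libraries and 98.5% and 98.0% in the Shh+ libraries. Endothelial cells, which are rich in Nrp1 and Plxnd1, were little seen in these libraries. Their 10 markers summed to 13.3 and 13.9 FPKM in Nfatc1+ cells and 15.1 and 14.8 FPKM in Shh+ cells, and 6 of them were below 1 FPKM in every library. Limma called 0 of the 7 tested, against 37.0% of all tested genes. Esam and Emcn passed the filter only through their Shh+ libraries, and of the 5 others 0 were called. As a description, Esam was at 0.254 and 0.383 FPKM in Nfatc1+ cells and at 1.10 and 0.706 FPKM in Shh+ cells. In bulk libraries such as these, fewer cells of a type and less RNA in each cell cannot be told apart.

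Known pairs of ligand and receptor can be set side by side by their calls, without a test of the pair. Sema3e was higher in Nfatc1+ cells while its receptor Plxnd1 was not called. For Sema3f, which was not called, the receptor Nrp2 was higher in Shh+ cells, and Sema3a was higher in Nfatc1+ cells while its receptor Nrp1 was not called. Sema6d and Sema6a were higher in Shh+ cells, Plxna2 in Nfatc1+ cells and Plxna1 in neither. Sema4d was higher in Shh+ cells, where Plxnb1 was at 63.5 and 61.5 FPKM and not called. Other pairs had the same direction: Sema4c and its receptor Plxnb2 were both called higher in Shh+ cells, and so were Sema3c and Nrp2. Nrp1, the other neuropilin that Sema3c binds, was not called. The calls of Sema4c, Plxnb2 and Sema3c ended under several alternatives. Plxna4, also of type A, was higher in Shh+ cells but passed the filter only through those libraries. These are comparisons of RNA levels in sorted cells, and neighboring cells of the skin that could carry either partner were not sampled.

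Partners of the system were described from 5 lists, set beside the 37.0% of all tested genes that were called. Of all tested genes, 18.9% were higher in Nfatc1+ cells and 18.1% in Shh+ cells. Of 13 tested receptors and coreceptors outside the family, 5 (38.5%) were higher in Nfatc1+ cells (Itga1, Nrcam, Mst1r, Chl1 and Itgb1). In Shh+ cells 2 (15.4%) were higher (L1cam and Cntn2, or 1 of them without Nfatc1+ replicate 1 or 2 or Shh+ replicate 1). Itga1, an integrin subunit that pairs with integrin β1 as a receptor of Sema7a, was at 8.01 and 9.11 FPKM in Nfatc1+ cells and 0.621 and 1.13 FPKM in Shh+ cells (log2 difference −2.74, standard error 0.20, limma adjusted p = 9.81e-05). Sema7a had its higher values in the same libraries. Nrcam, an adhesion molecule of neuropilin complexes, was at 1.85 and 2.39 FPKM against 0.155 and 0.311 FPKM (log2 difference −1.84), and the receptor kinase gene Mst1r was at 2.08 and 2.19 FPKM against 0.592 and 1.09 FPKM (log2 difference −1.001, adjusted p = 0.014, but 0.0576 without Nfatc1+ replicate 2 and 0.162 with no filter, with a lowest value of 0.00692). Nrcam and Cntn2 passed the filter only through the population where each was high, so that their differences and their place in these counts are a description. The log2 difference of Nrcam was −2.77 with 0.1 added and −1.34 with 1 added. Among the 5 ligands of the VEGF family, which share neuropilins with semaphorins, Figf was the 1 higher in Shh+ cells (20%). This gene of VEGF-D, a growth factor of lymphatic vessels, was at 7.27 and 6.27 FPKM in Nfatc1+ cells and 29.4 and 24.0 FPKM in Shh+ cells (log2 difference 1.90, adjusted p = 5.38e-05), the libraries in which Nrp2 was also higher. Vegfb and Pgf were higher in Nfatc1+ cells (40%), a count of 1 without Nfatc1+ replicate 2 or Shh+ replicate 1, and Vegfa was not called.

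Of 18 tested GTPases that plexins bind or regulate and their regulators, 10 were higher in Nfatc1+ cells and 2, Rnd1 and Rnd3, in Shh+ cells. Rnd1, a GTPase that binds the inner part of plexins, was at 0.168 and 0.0454 FPKM in Nfatc1+ cells and 2.45 and 2.12 FPKM in Shh+ cells (log2 difference 2.205). Rnd1 passed the filter only through its Shh+ libraries, so that this difference and its place in the count are a description, and it was 3.59 with 0.1 added and 1.57 with 1 added. Farp1, an exchange factor of the class 6 and plexin A pathway, was at 97.8 and 104 FPKM in Nfatc1+ cells and 46.0 and 46.8 FPKM in Shh+ cells (log2 difference −1.11, limma adjusted p = 2.57e-05), the same direction as Plxna2. Of 7 proteases that cut or shed semaphorins, 6 were higher in Nfatc1+ cells (85.7%, against 18.9%), or 3 without Nfatc1+ replicate 2. Pcsk5 was the 1 higher in Shh+ cells (14.3%, against 18.1%), and the median log2 fold change of the list was −0.37. Of 19 kinases, collapsin response mediators and Mical enzymes, 5 were higher in Shh+ cells (26.3%, against 18.1%), namely Pak1, Limk1, Cfl1, Crmp1 and Dpysl3. In Nfatc1+ cells 4 were higher (21.05%, against 18.9%), namely Fyn, Limk2, Dpysl2 and Mical3. These counts were between 2 and 3 and between 1 and 3 with 1 library left out, and each differed by less than 2-fold on the log2(FPKM + 0.5) scale. 

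**Figure D4:**
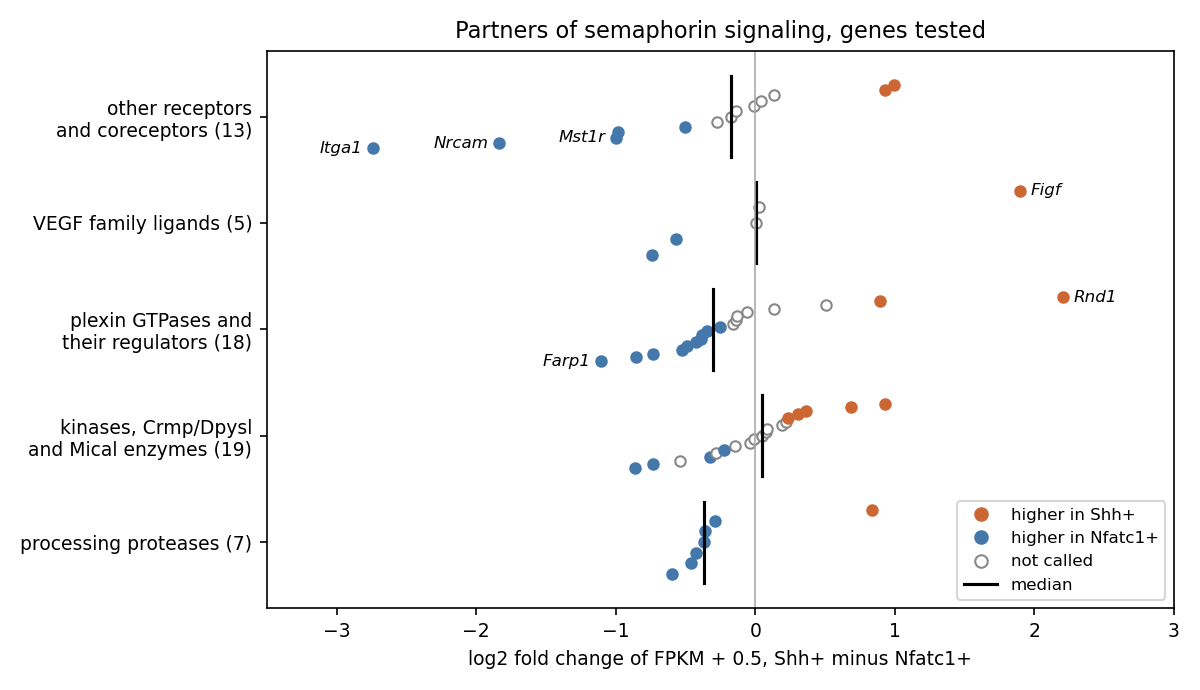
Log2 fold change of FPKM + 0.5 (Shh+ minus Nfatc1+) of the tested genes of 5 partner lists, with the number of genes in parentheses; circles are genes, open where not called, and black lines are medians. With 0.5 added, Rnd1 and Figf lie at 2.205 and 1.90 on the Shh+ side, and Itga1 and Nrcam at −2.74 and −1.84 on the Nfatc1+ side.

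Markers of the sorted keratinocytes and of other cell types moved with some of these results. Both populations were sorted with K14-H2BGFP, which marks keratinocytes, but the epidermis was discarded only for Shh+ cells. In basal keratinocyte markers, expression in each cell and the mix of keratinocytes sorted cannot be told apart. The 8 basal keratinocyte markers summed to 8294 and 8159 FPKM in the Nfatc1+ libraries, where Sema3e, Sema4b and Plxna2 were higher. In the Shh+ libraries they summed to 4918 and 4897 FPKM. Krt5 alone held 4323 and 4317 FPKM of the Nfatc1+ sums and 2443 and 2415 FPKM of the Shh+ sums. By limma 7 of the 8 markers (87.5%) were called higher in Nfatc1+ cells, a direction that 18.9% of the whole tested set took. Merkel cell markers summed to 60.3 and 68.5 FPKM in Nfatc1+ cells and 24.8 and 29.6 FPKM in Shh+ cells. The fibroblast markers summed to 384 and 667 FPKM against 712 and 747 FPKM, and the sum of the Shh+ libraries held 326 and 425 FPKM of Dcn. Dcn and Fbln1 were called higher in Shh+ cells and Col3a1 in Nfatc1+ cells, 30% of the list, against 37.0% of all tested genes. Of the 10 markers, 5 had both Nfatc1+ libraries above both Shh+ libraries and 2 had the reverse. Together that is 70% of the list, close to the 70.7% of all tested genes. The median log2 fold change of the list was −0.45. Schwann cell markers, of nerves, summed to 46.5 and 53.0 FPKM against 45.1 and 53.9 FPKM, most of it from Erbb3. Immune markers summed to 6.45 and 10.9 FPKM against 6.75 and 12.1 FPKM, with Aif1 as the 1 of 5 tested that was called, higher in Shh+ cells, and Cd3e was listed at 0 in each library. The part of the mix of keratinocytes, of Merkel cells, fibroblasts, Schwann cells and immune cells, and of the digestion, in the differences of semaphorins and their receptors was not tested.

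In the genome the family is spread over 17 chromosomes (GRCm38, GENCODE vM21), with a cluster of 4 class 3 genes on chromosome 5. There Sema3d (12383385 to 12588948), Sema3a (13125414 to 13602565), Sema3e (14025276 to 14256689) and Sema3c (17574281 to 17730268) lie on the plus strand within 5.35 Mb. The neighbors went in opposite directions: Sema3a and Sema3e, 422.7 kb apart, were higher in Nfatc1+ cells, and Sema3d and Sema3c on either side of them in Shh+ cells. On chromosome 9, Sema3b (107597674 to 107609229) was higher in Nfatc1+ cells, and Sema3f, 72.3 kb away (107681500 to 107710475), was not called. Sema6d lies on chromosome 2 from 124089969 to 124667770, Nrp2 on chromosome 1 from 62703285 to 62818695 and Plxna2 on chromosome 1 from 194618218 to 194816869. Exons of Plxna1 and Sema4c share 10.7% and 7.27% of their bases with a gene on the opposite strand (Gm26811 and D430040D24Rik), and without knowing whether the libraries kept the strand, reads of these pairs cannot be told apart. Strand use in counting is not given in the sources used here.

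To show the start regions of the tested members that differed most in each direction and of the more abundant neuropilin, the 250 bases before each RefSeq start of Sema6d, Sema3e and Nrp2 (GRCm38.p6, plus strand, 5′ to 3′) are printed, with a TCF/LEF core motif in capitals where it occurs. Sema6d has one start at the first base of the gene and another near its 3′ end, and FPKM of the whole gene do not tell which one was used.
Sema6d, chr2:124089719-124089968: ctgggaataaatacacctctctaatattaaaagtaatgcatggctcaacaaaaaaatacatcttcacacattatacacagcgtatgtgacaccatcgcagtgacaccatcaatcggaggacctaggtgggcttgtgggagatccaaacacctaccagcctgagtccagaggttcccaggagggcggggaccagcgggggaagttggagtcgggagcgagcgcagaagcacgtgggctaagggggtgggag
Sema6d, chr2:124653331-124653580: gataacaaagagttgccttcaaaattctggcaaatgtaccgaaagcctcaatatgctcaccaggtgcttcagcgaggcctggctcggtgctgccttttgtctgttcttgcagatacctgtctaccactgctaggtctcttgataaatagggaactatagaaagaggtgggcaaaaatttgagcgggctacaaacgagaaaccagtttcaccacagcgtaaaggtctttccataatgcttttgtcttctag
Sema3e, chr5:14025026-14025275: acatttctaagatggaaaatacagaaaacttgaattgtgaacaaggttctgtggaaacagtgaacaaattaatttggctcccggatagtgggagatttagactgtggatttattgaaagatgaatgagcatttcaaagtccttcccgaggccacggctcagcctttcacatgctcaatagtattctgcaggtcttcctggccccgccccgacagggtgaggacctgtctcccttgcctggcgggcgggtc
Nrp2, chr1:62703067-62703316: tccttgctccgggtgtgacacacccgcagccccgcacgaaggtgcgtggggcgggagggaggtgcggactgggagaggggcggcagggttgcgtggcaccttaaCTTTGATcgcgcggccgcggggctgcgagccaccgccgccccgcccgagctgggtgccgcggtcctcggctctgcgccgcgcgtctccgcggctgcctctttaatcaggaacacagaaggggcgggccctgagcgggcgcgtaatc

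The Nrp2 window was the richest of these in G and C, at 72.4% with 32 CpG dinucleotides, whereas the Sema3e window had 48.0% and 7, and the Sema6d windows had 52.4% and 9 and 45.2% and 6. The median over all 32851 windows was 52.4% and 6. For 26 of the 31 genes 37 windows were found, as some genes have several starts, and 3 motifs were searched on both strands. The TCF/LEF core CTTTGAT, the motif through which Wnt/β-catenin factors bind, was in 1 of the 37 windows and in 3.21% of all windows. That window was of Nrp2, with the motif 140 bases before the start. The AP-1 motif TGANTCA was in 3 of the 37 windows (of Sema4c, Sema4d and Sema6b) and in 6.75% of all windows. The Gli motif GACCACCCA was in 0 of the 37 and in 0.225%. A match of letters is a description of the window and shows no binding.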

How the data were processed

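RNA was measured in 4 libraries, 2 of Nfatc1+ and 2 of Shh+ hair peg cells, grouped by their sample titles. The authors mapped paired reads to GRCm38/mm10 with TopHat (2.0.13) and ran Cufflinks (2.2.1); HTSeq is also named in the submitters' processing notes, with no role given. The deposited values are FPKM per gene and library, without counts, so no counting interval can be given; the annotation used is not given in the sources used here.

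All genes that averaged 0.5 FPKM or more were fitted with limma (3.58.1, R 4.3.3; moderated variances with an intensity trend, no block) on log2(FPKM + 0.5), and p-values were adjusted over all 12750 genes by Benjamini-Hochberg. Folds are ratios of mean FPKM, errors are SD or limma standard errors, and n = 2 in each population. The fit was tested on simulated data, with log2 changes of at least 1 in size seeded only in genes above the low levels. Smaller changes, and changes in genes of low level, were not covered. Every family member was named; of the partner lists, called genes with a log2 fold change of at least 1 in size were named with their values, at most 3 in each list, and partner genes outside this rule were named after their values were seen. The members and lists were chosen with earlier results of these data known. Alternatives were pseudocounts of 0.1 and 1, no filter or a mean of at least 1 FPKM, upper-quartile scaling, no intensity trend, the form of the study's threshold, a replicate block and leaving out each library. Promoter windows were taken from RefSeq (GRCm38.p6) and positions from GENCODE vM21, both of the authors' build.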

Additional observations from a re-analysis of the deposited data

How the results depend on the processing

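Of the 18 called family members, 7 kept their direction and call under each of the 12 alternatives run (Nrp2, Plxna2, Sema3e, Sema4b, Sema4d, Sema5b and Sema6d), and of 321 values recomputed for the 27 tested members 282 kept both, 32 lost the call, 0 gained one and 7 reversed. The reversals were all of members that were not called, with 1 library left out: the log2 fold change then ranged from −0.059 to 0.114 for Plxna1, from −0.20 to 0.16 for Plxnd1, from −0.33 to 0.27 for Sema3g, from −0.12 to 0.14 for Sema5a and from −0.031 to 0.191 for Sema6c. With no filter, 23361 genes were tested, and the genes called higher in Shh+ and Nfatc1+ cells were 900 and 1109, against 2310 and 2406. For the family the count higher in Shh+ cells was then 6 in place of 11, and for partners the counts in Shh+ and Nfatc1+ cells were 0 and 2 for other receptors, 1 and 3 for GTPases, 0 and 1 for kinases and mediators, 0 and 1 for proteases, and 0 in Nfatc1+ cells for VEGF ligands. For genes with unadjusted p below 0.01 and a ratio of means over 2, the counts were 721 and 833 for all genes, 7 higher in Shh+ cells for the family, 1 and 2 for GTPases, 1 and 1 for kinases and mediators, and 0 higher in Nfatc1+ cells for VEGF ligands and for proteases. With a mean of at least 1 FPKM, 1 other receptor was higher in Shh+ cells, and without the intensity trend 3 and 2 kinases and mediators were called. With 1 library left out, the family counts ranged from 6 to 9 in Shh+ cells and stayed at 7 in Nfatc1+ cells; other receptors in Shh+ cells ranged from 1 to 2, VEGF ligands in Nfatc1+ cells from 1 to 2, kinases and mediators from 2 to 3 and from 1 to 3, and proteases in Nfatc1+ cells from 3 to 5. The cause of these shifts was not tested. Libraries of the 2 populations share replicate numbers, and the sources used here do not say what a number stands for; with 2 pairs, deviations of same-numbered libraries correlated at 0.11, and the numbers were not taken to pair the libraries. The replicate block moved the calls from 4716 to 4947 genes and those of the family from 11 to 10 in Shh+ cells and 7 to 7 in Nfatc1+ cells, where the call of Plxnb2 ended (adjusted p = 0.0672). By the estimate of depth given above, Shh+ replicate 2 was the shallowest library, in which values below 1 FPKM would be least precise.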
